A study of Danio rerio with 6 samples.

Results

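The genes described here make haem in developing red cells and bring in the iron it needs. They were chosen by name, and 9 are reported: the enzymes alas2, alad, uros, urod, cpox, ppox and fech, the transferrin receptor tfr1a and the mitochondrial iron carrier slc25a37. Each matched 1 row of the table, so 9 of its 32057 gene rows are described.

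RNA was sequenced in 6 libraries from adult zebrafish kidney marrow, taken whole, where fish make their blood cells. In 3 of them the fish were wild type, siblings born to heterozygous parents. In the other 3 the fish carried 1 germline copy of nz171, a stop-gain allele in exon 8 of rad21a, whose product is a subunit of the cohesin ring. Marrow of 3 adult fish was pooled for each library, and the libraries are called pools 1 to 3 of each genotype. The labels name no other treatment and give neither the sex, the clutch nor an age beyond adult. Values are TPM, a transcript level corrected for gene length and put on a common total in each library, so depth is unknown and no counting interval was computed.

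Haem is a porphyrin ring that holds iron, and in red cells nearly all of it goes into haemoglobin. ALAS2, the red-cell form of 5-aminolevulinate synthase, begins the pathway in the mitochondrion by joining glycine and succinyl-CoA. The middle enzymes work in the cytosol, the last ones in the mitochondrion, and ferrochelatase inserts the iron. Iron enters a young red cell on transferrin through transferrin receptor 1 and passes into the mitochondrion through mitoferrin 1, the product of slc25a37. Zebrafish with mutated alas2 or slc25a37 are known for pale blood.

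All 9 rows were expressed in all 6 libraries, and none passed the test between genotypes. The rows instead shared a pattern across pools: wild-type pool 1 and heterozygous pool 2 were the highest pair of libraries for 9 of 9, on both sides of the genotype comparison. Levels rose in the same pools as those of globins and other red-cell genes. The median row rose less steeply, so that its ratio to either was lowest in that highest pair. The ratio to a list of red-cell genes varied less than the TPM for 8 of 9 rows, the ratio to globins for 6 of 9. The share of all tested genes that would do likewise is not given. The ubiquitous relatives alas1, tfr1b and slc25a28 did not have wild-type pool 1 and heterozygous pool 2 as their highest pair. Only 1.98% of all tested genes did.

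The pools differed in make-up. The 8 matched globin rows held 10.7%, 2.68% and 4.92% of the TPM in wild-type pools 1 to 3 and 3.98%, 8.71% and 5.69% in heterozygous pools 1 to 3. For a list of 22 egg genes the sum was 19030 TPM in wild-type pool 2, 5550 TPM in wild-type pool 3 and 5.77 to 322 TPM elsewhere. For 9 matched neutrophil genes it was 51680 TPM in heterozygous pool 1 and 16520 to 24530 TPM elsewhere. The mutated gene, rad21a, averaged 97.4 ± 20.4 TPM over the wild-type pools and 63.6 ± 3.22 TPM over the heterozygous pools (SD, 3 pools each), with no overlap between genotypes, and its log2 fold change of -0.58 did not pass the threshold (limma adjusted p = 0.301).

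The rate-setting enzyme of the red-cell pathway, alas2, was the most abundant row. Its level was 516, 146 and 230 TPM across wild-type pools 1 to 3 and 157, 275 and 196 TPM across heterozygous pools 1 to 3, the order kept below. The genotypes overlapped, since the lowest library and the highest were both wild type. Its fitted log2 fold change was -0.34 (SE 0.47, 95% interval -1.47 to 0.78, limma adjusted p = 0.738; two-sided exact permutation p = 0.7).

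The steps that follow take place in the cytosol. ALAD joins a pair of aminolevulinate molecules, and its gene stood at 95.3, 47.1 and 50.1 TPM across the wild-type pools and 50.9, 91.5 and 84.1 TPM across the heterozygous pools. Wild-type pools 2 and 3 and heterozygous pool 1 formed a low trio for alad, and the other libraries stood well above it. Closing the ring is the task of UROS and trimming its side chains that of UROD. The level of uros was 60.3, 34.3 and 38.8 TPM across the wild-type pools and 25.8, 54.8 and 41.2 TPM across the heterozygous pools. That of urod was 193, 94.1 and 104 TPM across the wild-type pools and 96.2, 206 and 154 TPM across the heterozygous pools, the second-highest of the rows. The highest urod value was in heterozygous pool 2 and that of uros in wild-type pool 1, and the genotypes overlapped for both.

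The last steps return to the mitochondrion. CPOX and PPOX are oxidases, and cpox stood at 140, 59.5 and 71.3 TPM across the wild-type pools and 57.3, 126 and 95.5 TPM across the heterozygous pools. The level of ppox was lower, at 23.1, 14.9 and 19.1 TPM and at 14.3, 28.8 and 20.7 TPM. FECH, which puts the iron in, had a gene level of 31.2, 22.7 and 18.9 TPM across the wild-type pools and 10.7, 30.2 and 23.3 TPM across the heterozygous pools. Heterozygous pool 1, the library with the highest neutrophil sum, was the lowest for cpox, ppox and fech.

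Of the iron importers, tfr1a was the better expressed. It stood at 67.8, 21.7 and 32.2 TPM in wild-type pools and 24.6, 49.3 and 40.7 TPM in heterozygous pools, so that each heterozygous value fell within the wild-type range. The mitochondrial carrier slc25a37 stood at 5.45, 2.55 and 2.85 TPM and at 2.28, 4.19 and 2.53 TPM, the lowest row in every library.

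**Figure D1:**
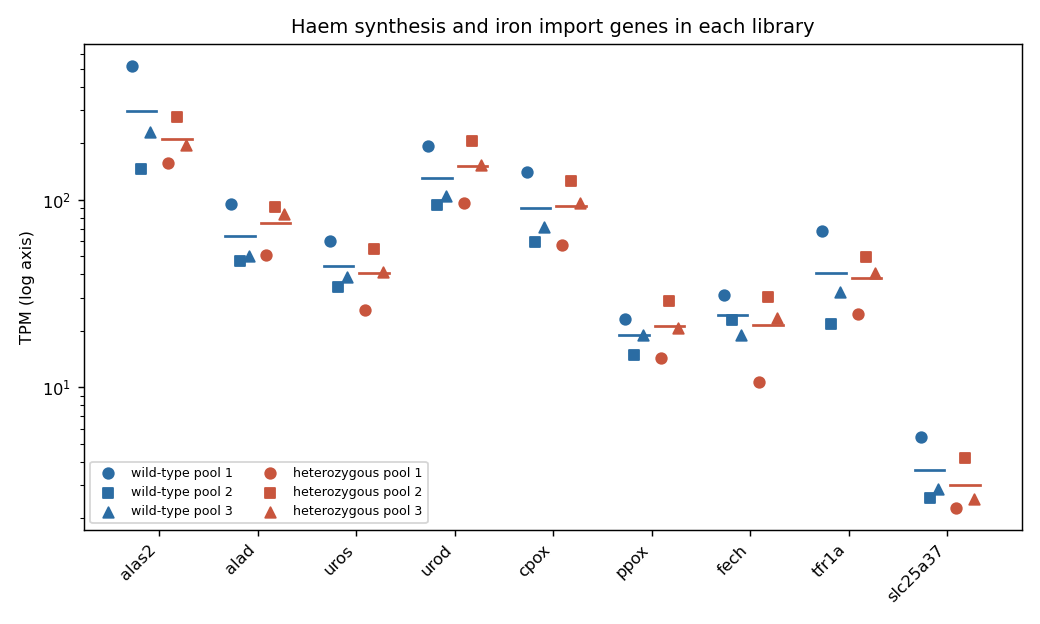
TPM of each haem synthesis and iron import row in the 6 libraries, on a log axis. Points are libraries, blue for wild type and red for heterozygous, and short bars are the means of 3 pools. The points of both genotypes overlap for all 9 rows, from alas2 at 146 to 516 TPM down to slc25a37 at 2.28 to 5.45 TPM.

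By mean TPM over the 6 libraries the order was alas2 at 254, urod at 141, cpox at 91.6, alad at 69.8, uros at 42.5, tfr1a at 39.4, fech at 22.8, ppox at 20.1 and slc25a37 at 3.31. Ranges of neighbours overlapped at each step but the last, where ppox was at least 4.23-fold above slc25a37 in each library. Within single libraries some steps were still uniform. alas2 exceeded urod in 6 of 6 libraries, by 1.28-fold to 2.68-fold, urod exceeded cpox in 6 of 6, by 1.37-fold to 1.68-fold, cpox exceeded alad in 6 of 6, by 1.13-fold to 1.47-fold, and alad exceeded uros in 6 of 6, by 1.29-fold to 2.04-fold. uros exceeded tfr1a in 5 of 6, tfr1a exceeded fech in 5 of 6 and fech exceeded ppox in 4 of 6.

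Over all genes, 1.37% of the 16537 tested passed an adjusted p under 0.05 in limma, a linear model on log2(TPM + 1), 0.81% higher and 0.562% lower in the heterozygotes. The share of these calls that was higher, 59.0%, depended on scaling and on single libraries: it was 70.4% after quantile normalization, 131 of 525 after rescaling to a list of red-cell genes and 18.6% of 1088 calls without wild-type pool 1. Of the 9 haem and iron rows 0 passed, and 0 stood at an unadjusted limma p under 0.05, where 15% of all tested genes did. Fold changes were positive for 5 rows and negative for 4, ran from -0.34 for alas2 to 0.26 for alad on the log2 scale, and had a median of 0.017, against -0.022 for all tested genes. The genotypes overlapped in 9 of 9 rows, whereas in 21.7% of all tested genes they did not, 11.9% with the heterozygotes higher and 9.79% with them lower. The smallest limma adjusted p was 0.738, shared by alas2 and alad, and two-sided exact permutation p-values ran from 0.5 to 1, where 3 against 3 allows no p below 0.1.

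These intervals leave room for moderate differences. Standard errors ran from 0.31 to 0.47 on the log2 scale. In 4 rows the 95% interval reached a doubling (a log2 change of 1), in 3 it reached a halving (-1), with tfr1a among both. For uros, ppox and slc25a37 it stayed inside these limits in this fit. After rescaling to a list of red-cell genes their intervals passed both limits. They ran from -1.86 to 1.4 for uros, -1.58 to 1.66 for ppox and -1.54 to 1.06 for slc25a37. The direction of the fold changes turned on single libraries: 8 of 9 were positive without wild-type pool 1, 7 without heterozygous pool 1, 4 without heterozygous pool 3, 3 without wild-type pool 3, 2 without wild-type pool 2 and 1 without heterozygous pool 2. Leaving out wild-type pools 2 and 3, which had the highest egg sums, left wild-type pool 1 alone, the highest library for 7 of 9 rows. Against that 1 library, assumed to vary like the others, 9 of 9 were negative, from -1.33 for alas2 to -0.16 for ppox. Wild-type pool 1 was in the highest pair of libraries for 9 of 9 rows, so these signs largely restate that ranking. It also had the highest sum of liver transcripts.

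**Figure D2:**
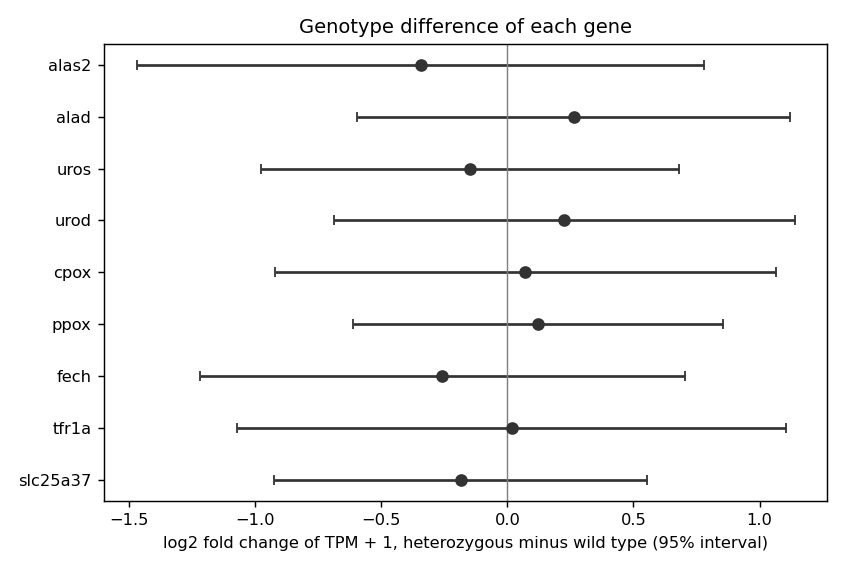
Log2 fold change of TPM + 1 between heterozygous and wild-type pools for each row, with bars for the 95% interval from limma. Every interval includes 0, and the widest, that of alas2, runs from -1.47 to 0.78.

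The rows rose and sank together from pool to pool. Expressed relative to its own 6-library mean, the median row stood at 1.42 in wild-type pool 1 and 1.31 in heterozygous pool 2, at 1.03 in heterozygous pool 3, and at 0.827, 0.674 and 0.626 in wild-type pool 3, wild-type pool 2 and heterozygous pool 1. Wild-type pool 1 and heterozygous pool 2 were the highest pair for 9 of 9 rows, a ranking found in 1.98% of all tested genes. Wild-type pools 2 and 3 and heterozygous pool 1 were the lowest trio for 7 of 9, a ranking found in 4.15% of all tested genes. The exceptions were alas2, where heterozygous pool 3 (196 TPM) lay below wild-type pool 3 (230 TPM), and slc25a37, where heterozygous pool 3 (2.53 TPM) lay just below wild-type pool 2 (2.55 TPM). Highest-to-lowest ratios ran from 2.01 for ppox to 3.53 for alas2, with a median of 2.39, and the median over the 6874 tested genes with a mean of at least 10 TPM was 2.19. These are descriptions of 6 libraries, and they were noticed in the same values they describe.

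Red-cell genes outside the pathway moved with the same pools. A list of 19 matched rows for erythroid regulators and membrane genes gave sums of 3535, 1046 and 1805 TPM across the wild-type pools and 1320, 2896 and 2059 TPM across the heterozygous pools. Its largest contributors were hemgn (hemogen, a nuclear factor of red cells), cahz (a red-cell carbonic anhydrase) and SLC4A1 (ENSDARG00000012881, the anion exchanger band 3). The globin sum was 107100, 26770 and 49190 TPM across the wild-type pools and 39750, 87070 and 56910 TPM across the heterozygous pools. Both sums were highest in wild-type pool 1 and heterozygous pool 2 and lowest in wild-type pool 2. Of the 16 tested erythroid rows 0 passed the threshold, against 1.37% of all tested genes. At an unadjusted limma p under 0.05 stood 1 of the 16, against 15% of all tested genes. That row was EPOR, the erythropoietin receptor, at 27.6, 14.7 and 28.8 TPM across the wild-type pools and 31.9, 50.1 and 39.2 TPM across the heterozygous pools (limma adjusted p = 0.33). In whole marrow, fewer red-cell precursors and less RNA per precursor cannot be told apart, and the part of the egg and neutrophil transcripts in the lower values was not tested.

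Dividing each row by the erythroid sum of its library removed much of the spread, but it also turned the order of pools. The share of all tested genes with less spread after the same division is not given here. The coefficient of variation over the 6 libraries was 35.5% for the median row as TPM, 21.1% per erythroid sum and 26.3% per globin sum. It was lower than as TPM in 8 of 9 rows per erythroid sum and in 6 of 9 per globin sum, where it rose for uros (30.3% to 33.8%), ppox (26.8% to 30.0%) and fech (33.2% to 50.5%). The closest follower was tfr1a, with 1.92, 2.08 and 1.78 TPM for every 100 TPM of the erythroid list in the wild type and 1.87, 1.70 and 1.97 across the heterozygous pools, a coefficient of variation of 7.13% against 43.8% as TPM. The exception per erythroid sum was fech, which went from 33.2% to 42.3%: for every 100 TPM of the list it stood at 2.17 TPM in wild-type pool 2 and at 0.808 to 1.13 TPM elsewhere. That pool, the one with the highest egg sum and the lowest erythroid sum, had the highest ratio for 8 of the 9 rows. Relative to its own mean, the median row per erythroid sum stood at 1.28 in wild-type pool 2. It was lowest in wild-type pool 1 (0.789) and heterozygous pool 2 (0.899), the highest pair as TPM. Per globin sum the values in these pools were 1.41, 0.729 and 0.843. The median row thus rose less steeply than either sum.

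Against the erythroid list, alas2 was the 1 row of 9 whose genotypes did not overlap. Of all tested genes treated likewise, 5.4% did not overlap, and 2.3% of all tested genes were lower in the heterozygotes without overlap. alas2 stood at 14.6, 14.0 and 12.8 TPM for every 100 TPM of the list across the wild-type pools, against 11.9, 9.49 and 9.54 TPM across the heterozygous pools. Two-sided exact permutation gave p = 0.1, the smallest that 3 against 3 allows. Any ratio whose genotypes did not overlap would give this value, so it repeats the non-overlap and is no further test. In the limma fit after rescaling to the erythroid list, the log2 fold change of alas2 was -0.423 (SE 0.805, 95% interval -2.0 to 1.16). In that fit alas2 did not pass the threshold. For every 1000 TPM of globin, alas2 stood at 4.82, 5.47 and 4.69 TPM across the wild-type pools and 3.96, 3.16 and 3.45 TPM across the heterozygous pools. These did not overlap either, where 4.47% of all tested genes did not overlap per globin and 2.2% were lower. Both ratios use the same alas2 values, and the globin and erythroid sums rose in the same pools, so the globin ratio is no separate check. Measured against the sum of the 6 other enzyme rows described the genotypes overlapped, at 95.1, 53.7 and 76.1 TPM for every 100 TPM across the wild-type pools and 61.7, 51.2 and 47.0 TPM across the heterozygous pools (two-sided exact permutation p = 0.2). The ratio was singled out after its values were seen.

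**Figure D3:**
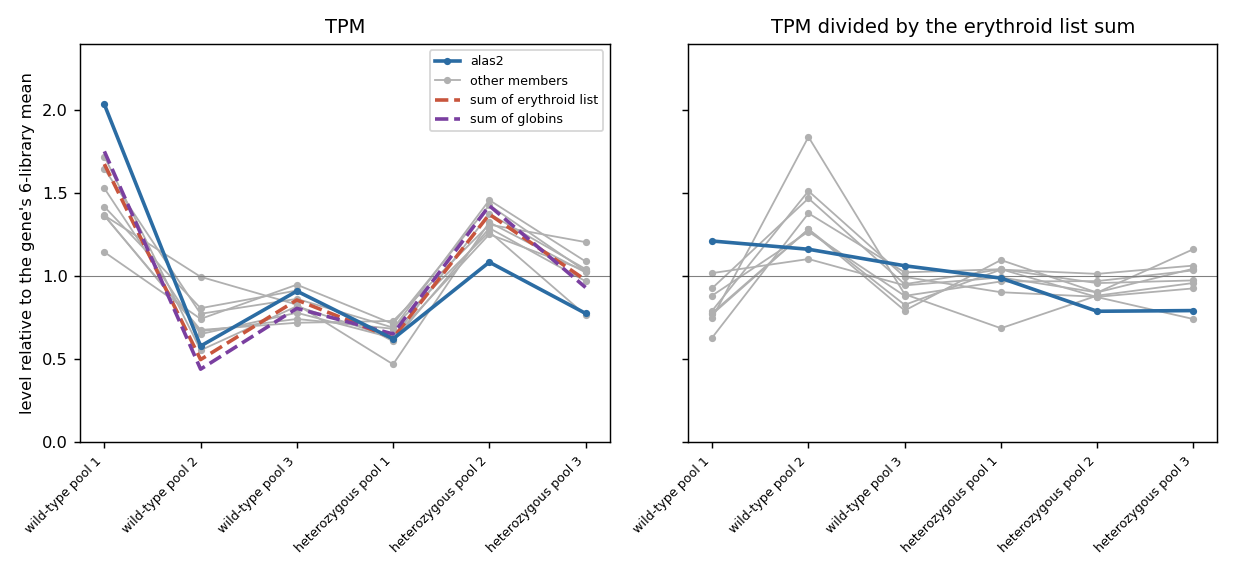
Level of each row relative to its own mean over the 6 libraries, as TPM on the left and after division by the summed TPM of the erythroid list on the right. Grey lines are the haem and iron rows, blue is alas2, dashed lines are the erythroid and globin sums, and lines join values of 1 gene and imply no order of pools. On the left wild-type pool 1 and heterozygous pool 2 form shared peaks. On the right the median over rows is lowest in these libraries, at 0.789 and 0.899, and wild-type pool 2 is high. There alas2 is highest in wild-type pool 1 and lowest in heterozygous pools 2 and 3.

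For 3 of these genes a relative exists that many tissues use, and those relatives did not follow the red-cell pattern. Most genes did not: 1.98% of all tested genes had its highest pair of pools. ALAS1, the form of the first enzyme found in most tissues, stood at 68.8, 86.0 and 82.6 TPM across the wild-type pools and 70.3, 66.8 and 115 TPM across the heterozygous pools. The ratio of alas2 to alas1 therefore ran from 1.70 in wild-type pool 2 to 7.50 in wild-type pool 1, and it was 2.24, 4.12 and 1.71 in the heterozygous pools. The receptor copy tfr1b stood at 37.7, 62.3 and 49.6 TPM across the wild-type pools and 64.3, 53.1 and 67.9 TPM across the heterozygous pools. Wild-type pool 1 was its lowest library and the highest for tfr1a, which exceeded tfr1b in that pool alone. Mitoferrin 2, encoded by slc25a28, stood at 13.4, 28.3 and 22.4 TPM across the wild-type pools and 17.2, 14.2 and 15.1 TPM across the heterozygous pools, so slc25a37 reached between 0.0903 and 0.405 of its level. No relative passed the threshold between genotypes, at limma adjusted p = 0.941 for alas1, 0.558 for tfr1b and 0.565 for slc25a28.

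**Figure D4:**
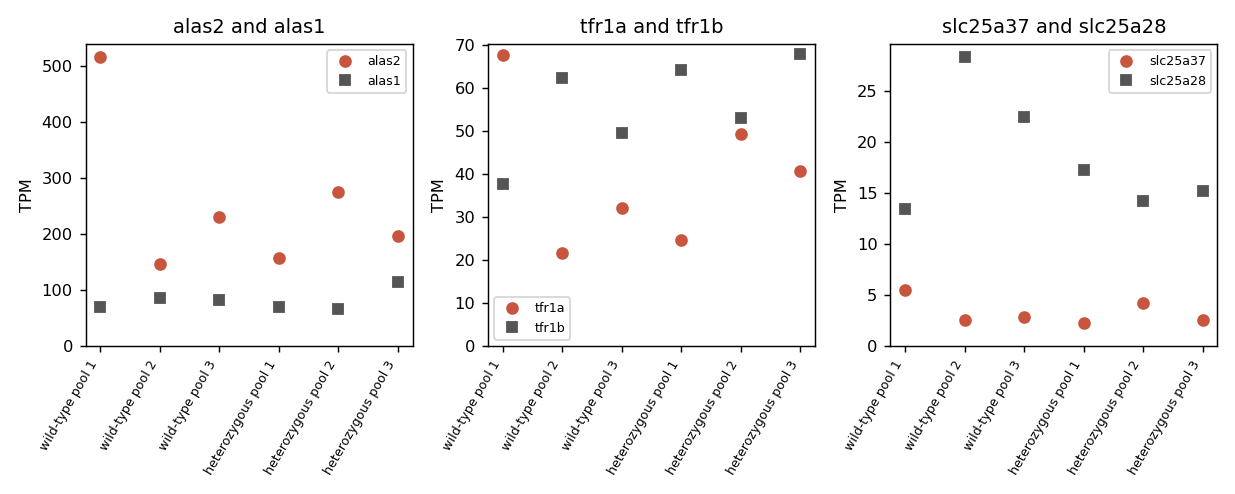
TPM of the red-cell gene (red circles) and its more widely expressed relative (grey squares) in the 6 libraries, on linear axes that start at 0. alas2 lies above alas1 in all 6 libraries, slc25a37 lies below slc25a28 in all 6, and tfr1a exceeds tfr1b only in wild-type pool 1.

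The genes whose levels over the 6 libraries were most like those of alas2 and tfr1a were sought among 6864 other genes with a mean of at least 10 TPM, by Pearson correlation of log2(TPM + 1). Only genes whose symbol passed a filter on its first letters were then named. The filter skipped clone-style and bare identifier names. It also skipped ordinary symbols that begin with capital U, AL, CR, CU, FO or FP, apart from ALAS and ALAD. Skipped genes may rank among or above those given. For tfr1a the top genes so named were cahz (0.998), NMT1 (ENSDARG00000057206, 0.994), klf1 (0.992), hbae4 (0.991), HSD17B7 (0.988) and SLC10A4 (0.988). klf1 encodes a transcription factor of red cells and hbae4 a globin that is outside the globin sum. For alas2 they were tspo (0.986), KLF8 (0.985), TFDP1 (ENSDARG00000019293, 0.982), tuba1b (0.982), SEPTIN3 (0.982) and fth1a (0.974). tspo encodes a porphyrin-binding protein of the outer mitochondrial membrane and fth1a the heavy chain of ferritin, which stores iron. These correlations were the highest of many, skipped symbols aside, over 6 libraries that share a pool's make-up, so they describe a ranking.

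Related genes of haem and iron handling were read from 5 lists, and of the 71 tested outside the 9 rows 0 passed the threshold, with 3 at an unadjusted limma p under 0.05, against 15% of all tested genes. The genotypes did not overlap in 8 of the 71, or 11.3%, below the 21.7% of all tested genes. Of the 71, 2 were higher and 6 lower in the heterozygotes without overlap, where 11.9% and 9.79% of all tested genes were.

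Genes of porphyrin transport and of ALAS2 partners had 11 of 16 positive fold changes and a median of 0.052 on the log2 scale. TMEM14C, which helps porphyrins cross into the mitochondrion, was the most abundant, at 431, 295 and 318 TPM across the wild-type pools and 254, 418 and 390 TPM across the heterozygous pools. The member of smallest p was slc25a39, a mitochondrial carrier that in mammals imports glutathione, at 32.3, 44.9 and 28.0 TPM across the wild-type pools and 17.1, 22.6 and 24.0 TPM across the heterozygous pools (log2 fold change -0.68, limma adjusted p = 0.293). PGRMC2, a haem-binding membrane protein, had a log2 fold change of -0.45, SUCLA2, a subunit of the ligase that handles succinyl-CoA, one of 0.53, and the sorting nexin SNX3 one of 0.40.

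Iron uptake, storage and export genes had 10 of 21 positive and a median of -0.012. Ferritin fth1a led the list at 3444, 2204 and 2480 TPM across the wild-type pools and 2407, 2663 and 2479 TPM across the heterozygous pools. Transferrin, tfa, the iron carrier of plasma, stood at 2512 TPM in wild-type pool 1 and at 7.06 to 38.9 TPM in the other 5 libraries, and CP (ceruloplasmin, a plasma ferroxidase) at 126 TPM there and at 9.14 to 22.0 TPM elsewhere. Both are made chiefly in liver, and other liver transcripts were high in that pool. The part of liver in the tfa and CP values was not tested. The members of smallest p beside tfa were MELTF, a membrane-anchored relative of transferrin, SLC39A14, a metal importer, and hephl1a, a relative of ceruloplasmin, with log2 fold changes of 0.96, 0.49 and 0.57 (limma adjusted p = 0.339, 0.411 and 0.5). TFR2, STEAP3 (the ferrireductase of the transferrin cycle) and ncoa4 (which delivers ferritin for breakdown) were each highest in wild-type pool 1, at 12.4, 14.2 and 84.1 TPM.

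Iron-sulfur cluster assembly genes, which supply a cofactor that animal ferrochelatase carries, had 7 of 18 positive and a median of -0.13. IBA57, a late assembly factor, stood at 38.7, 43.4 and 32.3 TPM across the wild-type pools and 18.3, 25.5 and 21.4 TPM across the heterozygous pools, with a log2 fold change of -0.78 ± 0.22 (SE), and did not pass over all genes (limma adjusted p = 0.203). ISCA1, another late factor, had a log2 fold change of -0.45, FDXR, the ferredoxin reductase, one of 0.36 and NFS1, the cysteine desulfurase, one of -0.51. GLRX5, whose loss causes anaemia in zebrafish, stood at 175, 124 and 141 TPM across the wild-type pools and 116, 194 and 164 TPM across the heterozygous pools, with its highest values in the pools that were high for the haem enzymes. The ferredoxin gene fdx1 stood at 262 and 261 TPM in heterozygous pools 2 and 3 and at 88.3 to 143 TPM in the other libraries. Those pools also led for the sum of 12 matched markers of interrenal tissue, a steroid source inside the kidney of fish, at 502 and 772 TPM against 4.64 to 147 TPM elsewhere, and their part in the fdx1 values was not tested.

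On the side of haem breakdown, transport and sensing 5 of 15 fold changes were positive, with a median of -0.051. HMOX2, a constitutive haem oxygenase, stood at 12.8, 14.2 and 15.7 TPM across the wild-type pools and 7.16, 9.42 and 9.35 TPM across the heterozygous pools, without overlap, and its log2 fold change was -0.66 ± 0.21 SE (limma adjusted p = 0.236). The other copy, hmox2b, was lower, at 1.93 to 3.32 TPM, and its genotypes overlapped (log2 fold change -0.017). BLVRA, which reduces biliverdin, the product of haem oxygenase, stood at 24.6, 29.5 and 24.8 TPM and at 11.2, 21.6 and 18.1 TPM, without overlap (limma adjusted p = 0.343). eif2ak1, the haem-sensing kinase that restrains translation when haem is short, had a log2 fold change of -0.44, and FLVCR1, a membrane transporter, one of 0.45. HMOX1, the inducible haem oxygenase, stood at 81.7, 43.9 and 80.7 TPM across the wild-type pools and 51.6, 41.4 and 51.2 TPM across the heterozygous pools, which overlapped.

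**Figure D5:**
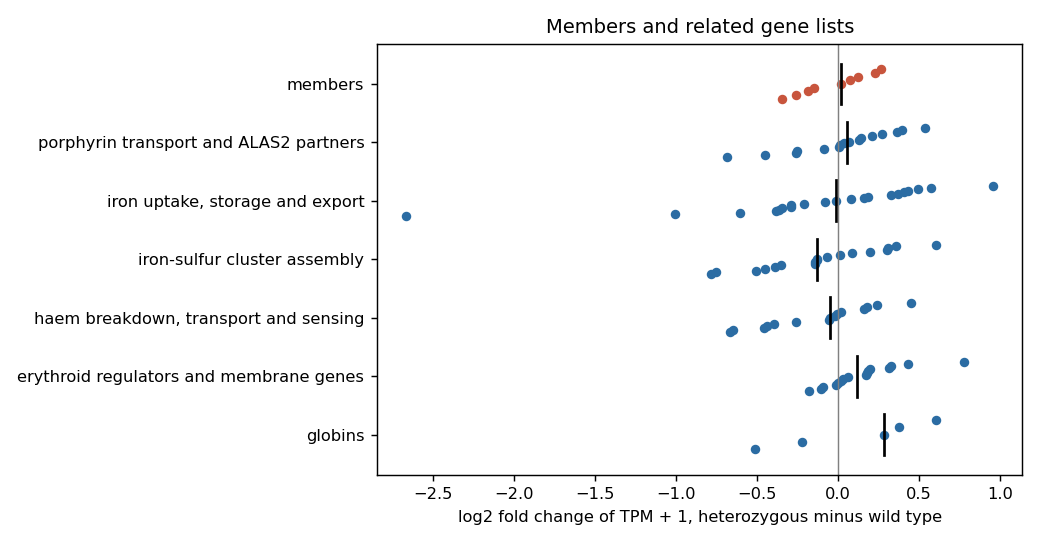
Log2 fold change of TPM + 1 between heterozygous and wild-type pools for each tested gene of the haem and iron rows (red) and of the related lists (blue), with a bar at each list's median. The haem and iron rows lie between -0.34 and 0.26, and the far point at -2.67 is tfa, which was high in wild-type pool 1 alone. alas1, the only tested gene of its list outside the rows, is not drawn.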

How the data were processed

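The authors deposited 1 table of TPM for all 6 libraries; each column sums to 1e+06. RNA was extracted with a NucleoSpin kit and libraries made with TruSeq RNA version 2, per the labels' protocols. Build GRCz11 and the tools FastQC, HISAT2 2.0.4 and featureCounts are named in the submitters' processing notes. No source used here states the annotation, gene lengths, strand setting or treatment of multi-mapped reads, so overlapping, antisense and duplicated genes may share reads. Symbols were found for 28988 of 32057 rows. A gene matched by symbol, letter case ignored, or without its copy suffix where the name table lacked it.

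Genes with at least 1 TPM in at least 3 libraries (16537) were tested on log2(TPM + 1) with limma (3.58.1, R 4.3.3), which understates changes of low genes. Genotype was the only term, variances had a mean trend, and two-sided p-values were Benjamini-Hochberg adjusted over all tested genes (threshold 0.05). Single values were also compared by exact permutation over 20 arrangements. The steps were tested on simulated data. Alternatives covered rescaling, removal of the 8 matched globin rows and of mitochondrial genes, pseudocount, filter, variance trend, replicate block and leaving out libraries. The globin hbae4 was not among the 8 rows and stayed in. Erythroid rescaling, the fit without wild-type pools 2 and 3, and a liver list were added after seeing the data. The members and lists were chosen with earlier results of these data known. 1 member and 1 related gene are not reported here. Named were the other members, rad21a, the up to 4 genes of smallest p in each related list, and the 6 genes most like alas2 and tfr1a among those whose symbol passed the filter on first letters. Others named were chosen after their values were seen.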

Additional observations from a re-analysis of the deposited data

How the results depend on the processing

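None of the 9 haem and iron rows passed the threshold under any alternative run (smallest limma adjusted p = 0.276, for alad without wild-type pool 1). Normalization, pseudocount, filter, variance trend and replicate block kept each row's direction. Without wild-type pools 2 and 3 together, which left wild-type pool 1 alone, log2 fold changes turned negative for alad (-0.38), urod (-0.41), cpox (-0.66), ppox (-0.16) and tfr1a (-0.87). Rescaling to the erythroid list turned cpox (-0.0079) and tfr1a (-0.058). In that fit the limma standard errors of the rows rose to between 0.66 and 0.83, so it says little of small ratios. The cause of these turns was not tested.

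Leaving out each library in turn gave log2 fold changes from -0.75 to 0.15 for alas2, 0.081 to 0.58 for alad, -0.39 to 0.14 for uros, -0.026 to 0.54 for urod, -0.18 to 0.44 for cpox (0.435 at most), -0.11 to 0.36 for ppox, -0.56 to 0.15 for fech, -0.34 to 0.46 for tfr1a, -0.39 to 0.082 for slc25a37 and -0.77 to -0.49 for rad21a.

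Over all genes 227 passed, 132 without a filter, 25 with the replicate block (40.0% higher in the heterozygotes), 53 without wild-type pools 2 and 3 (18.9% higher), 525 after erythroid rescaling, and 90 to 1088 with 1 library left out. Same-numbered pools did not deviate together (Pearson r across genes -0.272, 0.117 and -0.129). With so few pools, which differ in make-up, this check cannot show whether the numbers pair the samples. Depth is unknown.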

Other observations

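Wild-type pool 1, the library highest for 7 of the 9 haem and iron rows, also held liver transcripts. A list of 14 matched liver rows, written after tfa was seen, summed to 19680 TPM there, 429 and 334 TPM in wild-type pools 2 and 3, and 849, 1155 and 1288 TPM in heterozygous pools 1 to 3. Its most abundant gene, fabp10a, a fatty acid-binding protein of liver, stood at 7167 TPM in wild-type pool 1 and at 99.1 to 385 TPM elsewhere, and apoa2, an apolipoprotein, at 6374 TPM and at 6.77 to 682 TPM. The fibrinogen chain genes fga, FGB and FGG stood at 247, 374 and 365 TPM in that pool and reached at most 17.6 TPM elsewhere. alas1 stood at 68.8 TPM in that pool, within its range over the other libraries of 66.8 to 115 TPM. Liver also makes haem, and the part of liver transcripts in the haem enzyme and alas1 values of that pool was not tested.

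Of the 16 matched genes of haem breakdown, transport and sensing, blvrb (biliverdin reductase B) and HEBP2 had the same top pair of pools as the red-cell genes. The level of blvrb was 449, 182 and 319 TPM across the wild-type pools and 189, 422 and 291 TPM across the heterozygous pools. That of HEBP2, a haem-binding protein, was 28.5, 22.8 and 23.4 TPM across the wild-type pools and 11.7, 28.4 and 19.1 TPM across the heterozygous pools. HMOX1 and BLVRA each had another order of pools.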
